A study of Mus musculus with 8 samples.

Results

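Translation initiation factors (eIF) and translation elongation factors (eEF) were followed through exit from mitosis in mouse induced pluripotent stem cells by PRO-seq, which maps engaged RNA polymerases through the nascent RNA they extend in isolated nuclei. The genes were taken by symbol, as every gene whose name begins with Eif1 to Eif6 or with Eef1 or Eef2, and 65 of the 14861 genes in the table met that rule. The rule also takes in kinases, binding proteins and methyltransferases that act on the factors, and 1 gene, Eif4a3, whose product is best known as a core protein of the exon junction complex. The 65 genes lie on 20 chromosomes, all of them passed the filter on low signal (a mean of at least 0.5 over the 4 groups, met by 14814 genes), and 0 of them were listed at 0.

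The cells were a clonal line carrying the FUCCI2 cell-cycle reporter, kept on irradiated feeder cells in KO-DMEM with FBS, LIF and the 2i pair of inhibitors (against MEK and GSK3), and these conditions were shared by all groups. Mitotic cells were arrested with the microtubule poison nocodazole (200 ng/ml, 6 h), collected by shake-off and taken at 0 h. Early G1 and late G1 are the table's names for the cells released from that arrest, taken here by meaning as the 1 h and 3 h releases. Asynchronous cells were cycling cells that received no nocodazole. Per the labels there were 2 libraries in each of the 4 groups and 8 in all, and the table holds 1 combined value per gene and group. No difference below therefore has a replicate check, an SD or a test, the depth is unknown, and counts of genes past a 2-fold difference are descriptions of these 4 columns. In bulk samples such as these, fewer cells transcribing a gene and less transcription per cell cannot be told apart.

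The deposited signal summed to 16863 in mitosis, 361203 in early G1 and 326086 in late G1, against 309144 in asynchronous cells. Of 10 pluripotency markers, 9 were in the table and all of these had signal in every group, with at least 50.3 in early G1 and 60.0 in late G1, against at least 40.6 in asynchronous cells, which fits the labelled cell type. Of 16 fibroblast markers for the feeder cells, 9 were in the table. They summed to 4.53 in mitosis, 134 in early G1 and 129 in late G1, against 86.1 in asynchronous cells, and 1 of them was at 0 in a column. Fn1, which encodes fibronectin, made up 106 of this sum in early G1 and 61.3 in late G1, against 53.4 in asynchronous cells. The other 8 summed to 1.27 in mitosis, 27.7 in early G1 and 67.8 in late G1, against 32.7 in asynchronous cells. In late G1, 6 of the 9 were at least 2-fold higher than in early G1 (15.1% of all genes were), and their part in the results below was not tested.

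Initiation in eukaryotes begins when eIF2 brings the initiator tRNA to the small ribosomal subunit together with eIF1, eIF1A, eIF3 and eIF5, while the eIF4F complex recruits this subunit to the capped end of the mRNA. eIF2B recharges eIF2 with GTP, and kinases that phosphorylate the alpha subunit of eIF2 block this step under stress. eIF5B joins the large subunit, after which eEF1 delivers aminoacyl-tRNAs and eEF2 moves the ribosome along the mRNA. Many of these factors are highly expressed in dividing cells, and in pluripotent cells the 4E-binding proteins and eIF2 phosphorylation are known points of control.

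Promoter sequences of 2 sets of these genes are shown first, because both motifs they carry were more frequent here than over all promoters. RefSeq promoter sequences of GRCm38.p6 (250 bases before to 50 bases after the annotated start) could be matched within 1000 bp of the table's start site for 51 of the 65 genes and for 10515 genes in all. The E-box CACGTG, the sequence bound by MYC and other helix-loop-helix proteins, was found in 13 of the 51 promoters (25.5%), against 10.5% of all promoters. It reads the same on both strands. The 4 promoters below carry it in capitals, and they were chosen for the roles of their genes after the values had been seen: the cap-binding protein Eif4e (chr3:138527177-138527236, plus strand), the scaffold Eif4g1 (chr16:20672646-20672705, plus strand), the helicase Eif4a1 (chr11:69672580-69672639, minus strand) and the translocase Eef2 (chr10:81176571-81176630, plus strand).
Eif4e: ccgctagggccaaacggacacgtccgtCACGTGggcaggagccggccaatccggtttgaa
Eif4g1: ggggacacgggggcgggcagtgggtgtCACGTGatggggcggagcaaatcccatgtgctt
Eif4a1: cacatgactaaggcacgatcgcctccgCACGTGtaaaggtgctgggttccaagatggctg
Eef2: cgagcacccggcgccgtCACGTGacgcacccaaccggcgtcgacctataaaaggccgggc

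The core motif of ETS factors, searched as CCGGAA and on the other strand as TTCCGG, was found in 22 of the 51 promoters (43.1%), against 27.8% of all promoters. Each gene below had at least 2-fold more signal in early G1 than asynchronous cells did, in the deposited values. With the columns set to equal medians or quantile normalized, only Eif2ak1 and Eif3g of them stayed past 2-fold. Among the 65 genes, 6 past 2-fold in the deposited values had a promoter sequence, 5 of these held CCGGAA or TTCCGG, and 0 held CACGTG. Among all 1862 genes with that difference and a promoter sequence, 30.2% held the ETS core and 11.01% held the E-box. A link between motif and signal was not tested. In the stretches below, the core begins 1 base after the annotated start in Eif2b4 and 17 bases after it in Eif2ak1. In Eif2d, Eif3g and Eif2ak3 it lies before that start. The 5 promoter stretches, chosen by that difference, carry the ETS core in capitals: Eif2b4 (chr5:31193121-31193150, minus strand), Eif2d (chr1:131153147-131153206, plus strand), Eif3g (chr9:20898602-20898661, minus strand), Eif2ak1 (chr5:143817797-143817826, plus strand) and Eif2ak3 (chr6:70844362-70844421, plus strand).
Eif2b4: acccagtgcacgCCGGAAgttgtagtccgc
Eif2d: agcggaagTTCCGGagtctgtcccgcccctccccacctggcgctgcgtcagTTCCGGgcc
Eif3g: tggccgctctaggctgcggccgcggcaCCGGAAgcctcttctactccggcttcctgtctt
Eif2ak1: ctcttgtgttacTTCCGGcttggggggagg
Eif2ak3: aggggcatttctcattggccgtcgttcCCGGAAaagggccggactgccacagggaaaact

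Other motifs were counted in the same way. TATAAA was in 4 of the 51 promoters (7.84%), against 6.89% of all, CCAAT was in 16 (31.4%), against 38.3%, and GCGCATG, part of the NRF1 motif, was in 8 (15.7%), against 7.32%. Motifs were counted on both strands and may overlap. Translation genes are known for starting their transcripts with a C followed by pyrimidines, the motif through which mTORC1 controls their translation. At the annotated first base, a C followed by at least 4 pyrimidines was read in 2 of the 51 promoters, those of Eif2s3x and Eif3f, or 3.92%, against 2.24% of all. Annotated starts were matched to the table's start sites within 1000 bp and not to the base (131 bp apart for Eif2b4). This count therefore cannot tell how many of the genes start with such a tract.

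In mitosis all 65 genes had less signal than in asynchronous cells. All were at least 2-fold lower, as were 99.1% of all genes tested, and the median log2 ratio was -4.02, against -3.89 over all genes. The 65 genes had a median of 5.34% of their asynchronous signal in mitosis, against 5.36% over all genes. Both medians come from the same columns, and their order changes with the scaling of the columns. Early G1 had more signal than mitosis for all 65 genes, each at least 2-fold higher, as were 99.3% of all genes, and the median log2 ratio was 4.54, against 4.21 over all genes. The gap between members and all genes depended on the value added to each signal before the ratio. In early G1 against mitosis it was 0.24 with 0.02 added, 0.33 with the 0.1 used here and 0.56 with 0.5. In mitosis against asynchronous cells it was -0.03, -0.12 and -0.37.

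**Figure D1:**
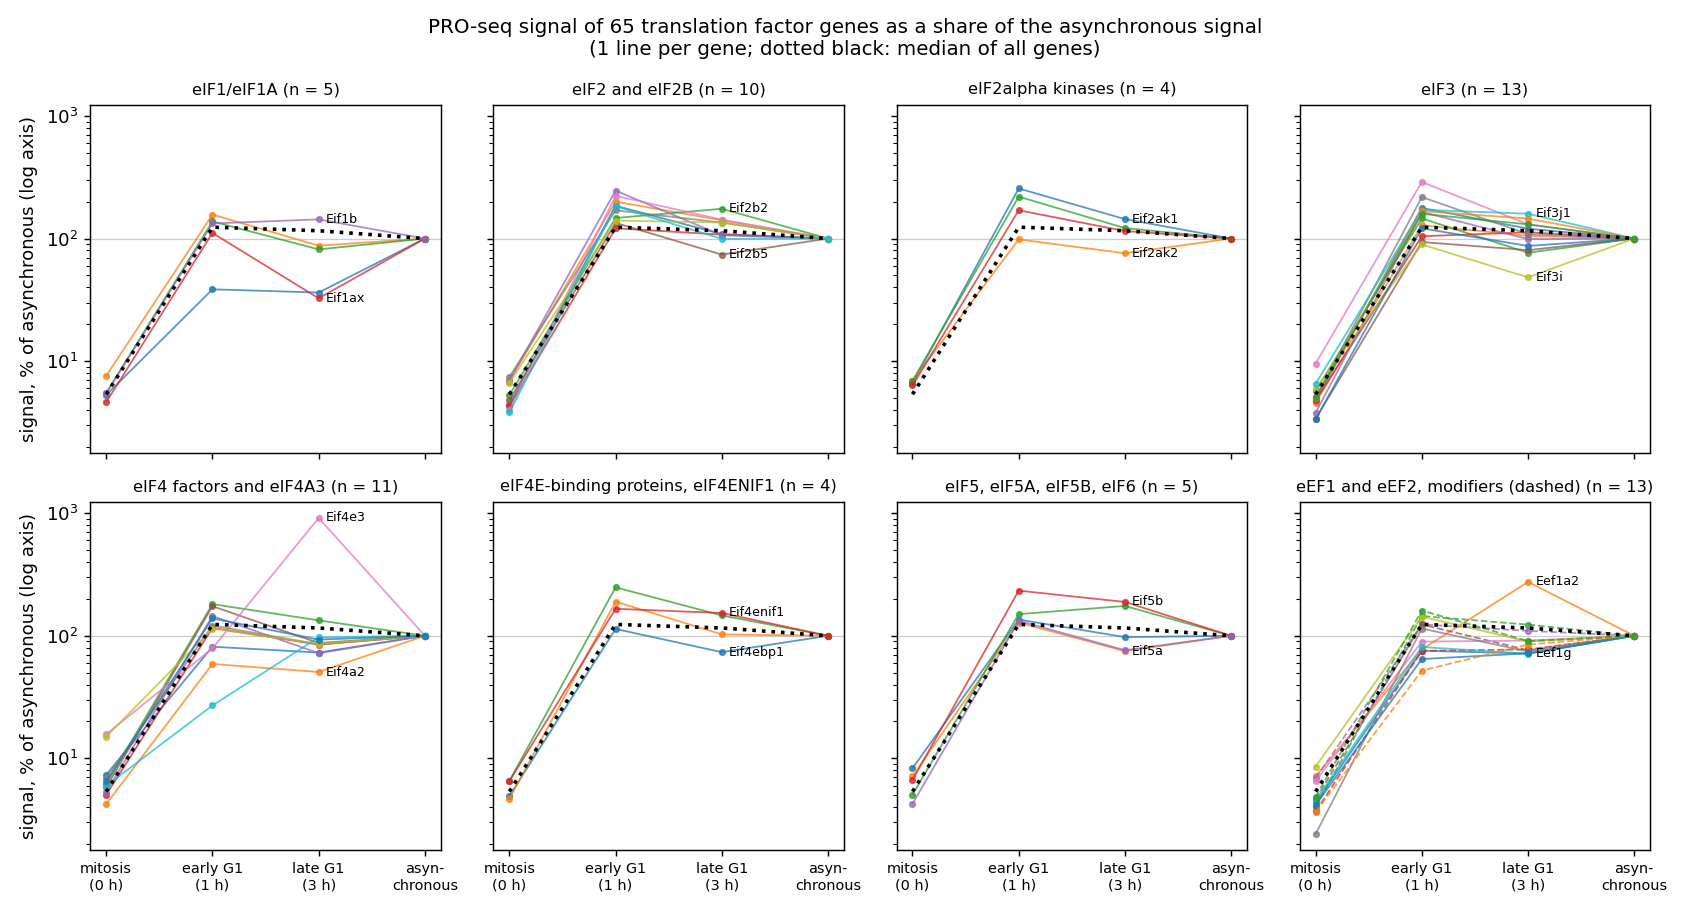
Signal in mitosis (0 h), early G1 (1 h) and late G1 (3 h) as a percent of the asynchronous signal (log axis, asynchronous cells at 100%), with 1 line for each of the 65 genes, 1 panel per role, 1 combined value per group and no error bars. The black dotted line is the median of all genes (5.36%, 124% and 116%), dashed lines in the last panel are the modifying enzymes, and the highest and lowest gene of each panel in late G1 is named.

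The largest shares of asynchronous signal in mitosis belonged to Eif4e3 and Eif4g2. Eif4e3, an atypical cap-binding protein, had 15.7%, but from a mitotic signal of 0.051, against 0.322 in asynchronous cells. Eif4g2, an eIF4G relative also named DAP5 that acts in cap-independent initiation, had 15.0%, with a signal of 14.3 in mitosis, 109 in early G1 and 81.9 in late G1, against 95.2 in asynchronous cells. The lowest share was that of Eef1d, a subunit of the eEF1B exchange factor, at 2.42%, followed by the eIF3 subunits Eif3k (3.37%) and Eif3f (3.38%). Eef1d had 1.40 in mitosis, 66.4 in early G1 and 43.1 in late G1, against 58.0 in asynchronous cells.

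Most of the genes peaked soon after release. Early G1 was the highest of the 4 groups for 46 of the 65 genes (70.8%), against 44.2% of all genes. Late G1 was highest for 6 (9.23%), against 33.9% of all genes, and asynchronous cells for 13 (20.0%), against 21.8%. The median gene of the 65 had 138% of its asynchronous signal in early G1 and 97.5% in late G1, where the median over all genes was 124% in early G1 and 116% in late G1. The share highest in early G1 depended on the scaling in both sets of genes. With the 4 columns set to equal medians it was 41.5% of the 65 (27 genes), against 26.3% of all genes, and with quantile normalization 43.1% (28 genes), against 28.9%.

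Late G1 signal was below early G1 signal for 54 of the 65 genes, against 53.8% of all genes. The median log2 ratio of late to early G1 was -0.47, against -0.08 over all genes. At least 2-fold differences were few: 3 genes were higher in late G1 (15.1% of all genes tested were) and 5 were lower (7.52% of all genes). Eif1ax, Eif2b4 and Eif3g were the clearest of the 5, while Eif3h and Eif4e stood at the threshold and Eif4e2 (0.502-fold) just missed it.

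Against asynchronous cells, early G1 signal was at least 2-fold higher for 8 of the 65 genes (17.7% of all genes were) and at least 2-fold lower for 2 (9.53% of all genes). With the columns at equal medians this split was 2 higher (Eif2ak1 and Eif3g, against 8.65% of all genes) and 4 lower (14.8%). With quantile normalization it was 3 higher (Eif4ebp3 as well, against 9.30%) and 2 lower (11.2%). The median log2 ratio was 0.46, against 0.30 over all genes, and 50 of the 65 lay above 0 (63.7% of all genes did). In late G1, 2 genes were at least 2-fold higher than in asynchronous cells (16.9% of all genes were) and 3 were at least 2-fold lower (5.14% of all genes), with a median of -0.04, against 0.21 over all genes, and 30 of the 65 lay above 0 (62.4% of all genes did). Signal lay above asynchronous cells in early G1 and below them in late G1 for 22 genes (33.8%), a course taken by 15.8% of all genes. It lay above at both times for 28 genes (43.1%, against 48.0% of all) and below at both times for 13 (20.0%, against 21.7%). These comparisons share the asynchronous column.

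The authors' deposited table gives each gene a temporal class, with no rule for the classes stated in the sources used here. It places 30 of the 65 genes in Early_Spike (46.2%, against 33.6% of all genes) and 26 in Early_Plateau (40.0%, against 26.3%). The Gradual class holds 5 (Eef2, Eef2k, Eif1, Eif4a2 and Eif4g3, or 7.69%, against 15.4% of all genes) and Transient holds 4 (Eef1a2, Eif2b2, Eif4e3 and Eif5a2, or 6.15%, against 24.7%).

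**Figure D2:**
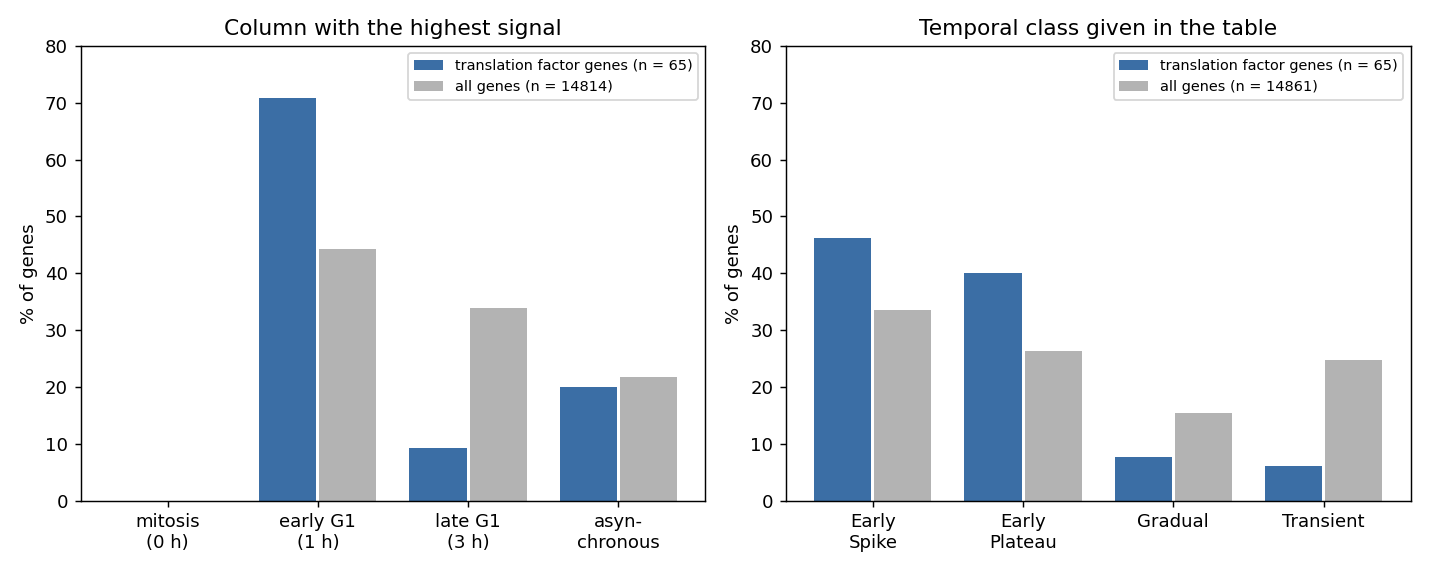
Percent of genes whose highest signal lies in each group (left) and percent in each temporal class of the authors' deposited table (right), for the 65 translation factor genes (blue) and all genes (grey). The early G1 bar stands at 70.8% for the factors, against 44.2% for all 14814 genes that passed the filter, and Transient at 6.15%, against 24.7% of all 14861 genes.

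**Figure D3:**
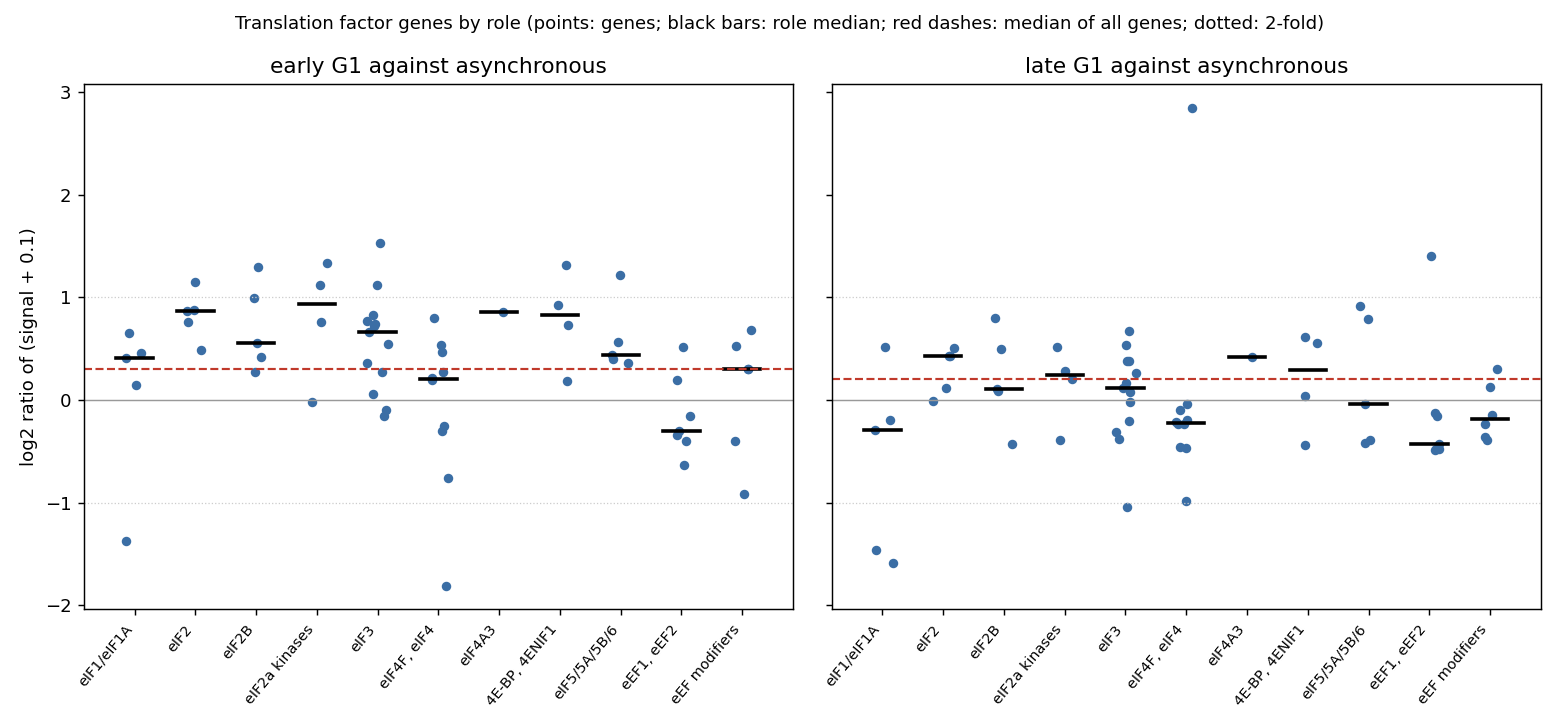
log2 ratio of signal + 0.1 in early G1 (left) and late G1 (right) against asynchronous cells, with 1 point for each of the 65 genes grouped by role. Black bars are the role medians, the red dashes the median of all genes (0.30 on the left and 0.21 on the right) and the dotted lines a 2-fold difference; the median of eEF1 and eEF2 lies lowest in both panels.

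The genes that deliver the initiator tRNA lay above asynchronous cells in early G1. All 5 had a positive log2 ratio there (63.7% of all genes did), with a median of 0.87. Of them 1, Eif2d, was at least 2-fold higher (17.7% of all genes), though under neither other scaling. In late G1 the median was 0.43 and 4 of the 5 lay above 0 (62.4% of all genes). With equal medians the early G1 median was 0.55 and all 5 were still above 0. Eif2s1, the alpha subunit of eIF2 and the target of the stress kinases, had a signal of 1.21 in mitosis, 27.6 in early G1 and 22.0 in late G1, against 16.3 in asynchronous cells. The beta subunit Eif2s2 had 6.09, 129 and 124 at these times, against 91.7 in asynchronous cells. For both subunits G1 signal was above asynchronous signal at both times, by under 2-fold.

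The gamma subunit gene on the X chromosome, Eif2s3x, had 0.350 in mitosis, 16.9 in early G1 and 9.13 in late G1, against 9.19 in asynchronous cells. Its late G1 value was thus close to its asynchronous value, and its early G1 value was among the 4 highest of the 65 genes relative to mitosis (log2 ratio 5.24). Eif2d, which can place initiator tRNA independently of eIF2, had the highest ratio of early G1 to mitosis of all 65 genes, a log2 ratio of 5.62. Its signal was 0.687 in mitosis, 38.7 in early G1 and 24.8 in late G1, against 17.4 in asynchronous cells. Eif2d overlaps Rassf5 on the other strand, whose signal was 23.7 in early G1 and 16.5 in late G1, against 9.51 in asynchronous cells, and the sources used here do not state whether counting used strand. Eif2a, an alternative initiation factor distinct from the alpha subunit of eIF2, had 0.403 in mitosis, 16.9 in early G1 and 9.92 in late G1, against 9.12 in asynchronous cells.

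All 5 subunit genes of eIF2B, the exchange factor, had early G1 signal above asynchronous signal (63.7% of all genes did). Their median log2 ratio was 0.55 in early G1 and 0.10 in late G1. The early G1 median was 0.23 with equal medians and 0.21 with quantile normalization, while the late G1 median turned to -0.10 under both. The delta subunit Eif2b4 was the 1 past 2-fold (17.7% of all genes), though under neither other scaling, at 1.06 in mitosis, 37.7 in early G1 and 16.3 in late G1, against 15.3 in asynchronous cells. Eif2b1, the alpha subunit, stopped just short of it at 1.99-fold, with 42.3 in early G1, against 21.1 in asynchronous cells. Eif2b5, the catalytic epsilon subunit, had 2.498 in mitosis, 69.9 in early G1 and 38.5 in late G1, against 52.1 in asynchronous cells, the lowest late G1 ratio to asynchronous cells of the 5. Eif2b2, the beta subunit, was highest in late G1, with 0.481 in mitosis, 13.4 in early G1 and 16.0 in late G1, against 9.12 in asynchronous cells. Eif2b3, the gamma subunit, stayed within 1.21-fold of its asynchronous value at both G1 times.

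The 4 kinases of the alpha subunit of eIF2 are activated by different stresses. Early G1 was the highest group for 3 of them (44.2% of all genes), and 2 were at least 2-fold higher than in asynchronous cells (17.7% of all genes). Of these 2, Eif2ak1 was past 2-fold under both other scalings too and Eif2ak3 under neither. The median log2 ratio of the 4 kinases was 0.94 in early G1 (0.62 under both other scalings) and 0.24 in late G1 (-0.03 with quantile normalization). Eif2ak1, the kinase activated by lack of haem, had 0.316 in mitosis, 12.3 in early G1 and 6.92 in late G1, against 4.80 in asynchronous cells. Eif2ak1 overlaps Aimp2 and Ankrd61 on the other strand, and these had 54.6 and 27.9 in early G1, against 24.0 and 10.7 in asynchronous cells. Eif2ak3, the kinase PERK of the endoplasmic reticulum, had 0.430 in mitosis, 13.7 in early G1 and 7.58 in late G1, against 6.22 in asynchronous cells, a log2 ratio of 1.12 in early G1.

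Eif2ak4, the kinase GCN2 that senses uncharged tRNA, had 0.413 in mitosis, 11.1 in early G1 and 7.52 in late G1, against 6.53 in asynchronous cells. Its early G1 signal was 1.69-fold that of asynchronous cells. Eif2ak2, the kinase PKR activated by double-stranded RNA, stood apart from the other 3, with 0.733 in mitosis, 10.5 in early G1 and 8.06 in late G1, against 10.6 in asynchronous cells.

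The large eIF3 complex, which bridges the small subunit and eIF4G, gave 13 genes. Of these, 11 had early G1 signal above asynchronous signal (63.7% of all genes did), with a median log2 ratio of 0.67. Past 2-fold were 2 (17.7% of all genes), Eif3g under all 3 scalings and Eif3h under the deposited one. In late G1 the median was 0.12 (-0.09 under both other scalings), and 8 of 13 lay above 0 (62.4% of all genes). There 1 gene, Eif3i, was at least 2-fold lower (5.14% of all genes), under all 3 scalings. Eif3g, the subunit that binds RNA and takes part in scanning, had the highest ratio of early G1 to asynchronous cells of the 65 genes, a log2 ratio of 1.53. Its signal was 2.70 in mitosis, 81.8 in early G1 and 36.9 in late G1, against 28.2 in asynchronous cells.

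Eif3h, a subunit with an MPN domain, had 0.513 in mitosis, 22.4 in early G1 and 11.1 in late G1, against 10.3 in asynchronous cells. Eif3i, a WD-repeat subunit, went the other way, with 0.835 in mitosis, 12.5 in early G1 and 6.74 in late G1, against 14.0 in asynchronous cells. The large scaffold subunit Eif3a had 1.73 in mitosis, 64.8 in early G1 and 43.8 in late G1, against 36.4 in asynchronous cells. Eif3j1, a loosely bound subunit, had the highest late G1 ratio of the 13, with 0.814 in mitosis, 21.3 in early G1 and 19.8 in late G1, against 12.4 in asynchronous cells.

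The remaining eIF3 genes were within 2-fold of asynchronous cells at both G1 times. Eif3e, Eif3l and Eif3m were 1.59 to 1.67-fold in early G1. Eif3b, Eif3c, Eif3d and Eif3k were 1.04 to 1.46-fold. Eif3f had the lowest early G1 ratio to asynchronous cells of these (0.937-fold), at 27.2 in early G1 and 23.4 in late G1, against 29.0 in asynchronous cells. Over the 13 subunits, early G1 signal ranged between 0.896-fold (Eif3i) and 2.89-fold (Eif3g) of asynchronous signal.

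The genes of eIF1 and eIF1A, which hold the scanning ribosome open for start codon choice, took different courses. Eif1 (chromosome 11, start site at 100320708 in GRCm38, per the table) had the second-lowest late G1 ratio to asynchronous cells after Eif1ax, with 27.7 in mitosis, 202 in early G1 and 190 in late G1, against 523 in asynchronous cells. It was at least 2-fold lower at both G1 times under all 3 scalings, with log2 ratios of -1.38 in early G1 and -1.46 in late G1. Its close relative Eif1b had 0.397 in mitosis, 9.66 in early G1 and 10.4 in late G1, against 7.27 in asynchronous cells, so this pair lay on opposite sides of the asynchronous value.

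Eif1ax, the X-linked gene for eIF1A (start site at 159372178), had 0.483 in mitosis, 11.6 in early G1 and 3.40 in late G1, against 10.4 in asynchronous cells. Its late G1 signal was the lowest of the 65 genes relative both to early G1 (log2 ratio -1.74) and to asynchronous cells (-1.59). Eif1a, its relative on chromosome 18, had 5.59 in mitosis, 115 in early G1 and 64.4 in late G1, against 73.6 in asynchronous cells. Eif1ad, which carries an eIF1A-like domain, had 1.29 in mitosis, 32.4 in early G1 and 19.1 in late G1, against 23.5 in asynchronous cells. Reads of close relatives can be split by the counting, and the sources used here do not say how this was handled.

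The 10 genes of eIF4F and its helpers lay nearer to asynchronous cells. Early G1 signal was above asynchronous signal for 6 of 10 (63.7% of all genes) and late G1 signal for 1 of 10 (62.4%). Median log2 ratios were 0.20 in early G1 (-0.12 with equal medians and -0.09 with quantile normalization) and -0.22 in late G1. The cap-binding protein Eif4e had 0.843 in mitosis, 22.9 in early G1 and 11.4 in late G1, against 15.8 in asynchronous cells. Eif4e2, the cap-binding protein 4EHP that represses translation, had 1.44 in mitosis, 43.2 in early G1 and 21.6 in late G1, against 24.8 in asynchronous cells. In both, late G1 signal was below asynchronous signal and near 2-fold below early G1 signal.

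Eif4e3 (chromosome 6, start site at 99666771) had the largest ratio of late G1 to asynchronous cells among the 65 genes. Its signal was 0.051 in mitosis, 0.254 in early G1 and 2.95 in late G1, against 0.322 in asynchronous cells, a log2 ratio of 2.85 in late G1. Eif4e3 passed the filter on low signal (a mean of at least 0.5) only through its late G1 value, the same value that gives it this rank. All of its values are low, as the median over all genes in late G1 was 10.9. A minimum mean signal of 2.5 takes the gene out. Eif4e3 overlaps Gpr27 on the other strand, whose signal was 2.46 in early G1 and 3.52 in late G1, against 10.3 in asynchronous cells.

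The helicases were below asynchronous cells at both G1 times. Eif4a1, the main helicase of eIF4F, had 43.1 in mitosis, 476 in early G1 and 427 in late G1, against 584 in asynchronous cells. Eif4a2 had 35.4 in mitosis, 493 in early G1 and 424 in late G1, against 837 in asynchronous cells, and was near 2-fold lower in late G1 (0.506-fold). By contrast Eif4a3, of the exon junction complex, had 1.59 in mitosis, 46.6 in early G1 and 34.3 in late G1, against 25.7 in asynchronous cells. The cofactors Eif4b and Eif4h, which stimulate the helicase, were 1.16-fold and 1.38-fold in early G1 and 0.848-fold and 0.932-fold in late G1.

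The scaffold genes of eIF4F differed from one another. Eif4g1 had 3.42 in mitosis, 59.8 in early G1 and 42.0 in late G1, against 49.4 in asynchronous cells. Eif4g3 (chromosome 4, start site at 137993513) had 0.281 in mitosis, 1.27 in early G1 and 4.57 in late G1, against 4.71 in asynchronous cells. Its early G1 signal was the lowest of the 65 genes relative to asynchronous cells (log2 ratio -1.81), and its late G1 signal was close to the asynchronous level (0.971-fold).

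Eif4g3 is also the longest of the 65 genes, spanning 215 kb in RefSeq, against a median span of 17.4 kb for the 65. Of the 9 genes over 50 kb, 6 were highest in early G1 (44.2% of all genes of any span were). Among them were Eif2ak4 (86.7 kb, 170% of asynchronous signal in early G1) and Eif3h (78.9 kb, 218%). Eef2k (64.6 kb) had 52.0% and Eif4g3 had 27.03%. The median log2 ratio of early G1 to asynchronous cells was 0.76 for the 9 genes, against 0.47 over all genes above 50 kb. The part of gene span in these values was not tested.

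The 4 genes for 4E-binding proteins and their transporter all lay above asynchronous cells in early G1 (63.7% of all genes did). Their median log2 ratio was 0.83 (0.50 with equal medians, where 3 of the 4 lay above 0). The 4E-binding proteins hold eIF4E away from eIF4G until mTORC1 phosphorylates them. Eif4ebp1 had 3.41 in mitosis, 78.7 in early G1 and 50.9 in late G1, against 69.2 in asynchronous cells. Eif4ebp2 had 1.70 in mitosis, 69.1 in early G1 and 37.4 in late G1, against 36.4 in asynchronous cells. In late G1 this was 0.736-fold of the asynchronous value for Eif4ebp1 and 1.03-fold for Eif4ebp2, and both were below it under the other scalings (0.890-fold for Eif4ebp2 with equal medians). Eif4ebp3 was the 1 gene of the list past 2-fold in early G1 (17.7% of all genes), though not with equal medians. It had 4.54 in mitosis, 172 in early G1 and 102 in late G1, against 69.4 in asynchronous cells. Eif4enif1, the protein 4E-T that brings eIF4E into the nucleus and into P-bodies, had 1.11 in mitosis, 28.3 in early G1 and 26.2 in late G1, against 17.0 in asynchronous cells. Eif4enif1 overlaps Sfi1 on the other strand, whose signal was 464 in early G1 and 593 in late G1, against 140 in asynchronous cells.

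All 5 genes of eIF5, eIF5A, eIF5B and eIF6 were above asynchronous cells in early G1 (63.7% of all genes were). Their median log2 ratio was 0.44 (0.12 with equal medians, again all 5). In late G1, 2 of the 5 were above asynchronous cells (62.4% of all genes). Eif5b, the GTPase of subunit joining, was the 1 past 2-fold in early G1 (17.7% of all genes), though under neither other scaling. It had 0.973 in mitosis, 34.1 in early G1 and 27.6 in late G1, against 14.6 in asynchronous cells. Eif5b overlaps Rev1 on the other strand, whose signal was 38.5 in early G1 and 30.7 in late G1, against 14.5 in asynchronous cells. Eif5, the GTPase activator of eIF2, had 4.60 in mitosis, 75.3 in early G1 and 54.2 in late G1, against 55.5 in asynchronous cells.

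Eif5a, the hypusine-bearing factor that relieves stalled ribosomes, had 9.83 in mitosis, 176 in early G1 and 103 in late G1, against 137 in asynchronous cells. Its relative Eif5a2 had 0.146 in mitosis, 4.33 in early G1 and 5.05 in late G1, against 2.89 in asynchronous cells. This pair lay on different sides of the asynchronous value in late G1 under all 3 scalings. Eif6, which keeps the ribosomal subunits apart, had 1.13 in mitosis, 35.2 in early G1 and 20.3 in late G1, against 26.6 in asynchronous cells.

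The elongation factors had the lowest medians of the role groups relative to asynchronous cells, except in late G1 with quantile normalization, where eIF1 and eIF1A (-0.46), the modifying enzymes (-0.42) and eIF4F (-0.35) lay below them (-0.32). Of the 7 genes of eEF1 and eEF2, 5 had early G1 signal below asynchronous signal and 6 had late G1 signal below it. Over all genes, 63.7% lay above it in early G1 and 62.4% in late G1. The medians of the 7 were -0.30 in early G1 and -0.43 in late G1, which kept their sign under both other scalings. Relative to the median of all genes these medians were -0.61 and -0.64. Eef1a1 (chromosome 9, start site at 78481724), the factor that carries aminoacyl-tRNA, had 30.3 in mitosis, 524 in early G1 and 498 in late G1, against 694 in asynchronous cells. Eef2, the translocase, had 7.23 in mitosis, 112 in early G1 and 125 in late G1, against 174 in asynchronous cells.

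The eEF1B subunits followed in part. Eef1b2 had 7.35 in mitosis, 100 in early G1 and 103 in late G1, against 112 in asynchronous cells. Eef1g had 5.56 in mitosis, 98.7 in early G1 and 86.9 in late G1, against 122 in asynchronous cells. Eef1d (1.145-fold in early G1) and Eef1e1, a scaffold protein of the tRNA synthetase complex (1.43-fold), were the 2 of the 7 above asynchronous cells in early G1, and both were below them in late G1. Thus all of the elongation genes except Eef1a2 lay below asynchronous cells in late G1.

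Eef1a2, the form of eEF1A known from muscle and neurons, had 0.112 in mitosis, 1.21 in early G1 and 4.30 in late G1, against 1.56 in asynchronous cells. It was at least 2-fold higher in late G1 than in early G1 (log2 ratio 1.75) and than in asynchronous cells (1.40), the second of which fell under 2-fold with quantile normalization (1.93-fold). With Eif4e3 it was 1 of 2 genes of the 65 past 2-fold above asynchronous cells in late G1. Both have a mean signal under 2.5, and Eif4e3 passed the filter only through its late G1 value. Over the same step from early to late G1, 6 of the 9 fibroblast markers in the table were at least 2-fold higher as well, with a median log2 ratio of 1.32, and their part in these values was not tested.

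**Figure D4:**
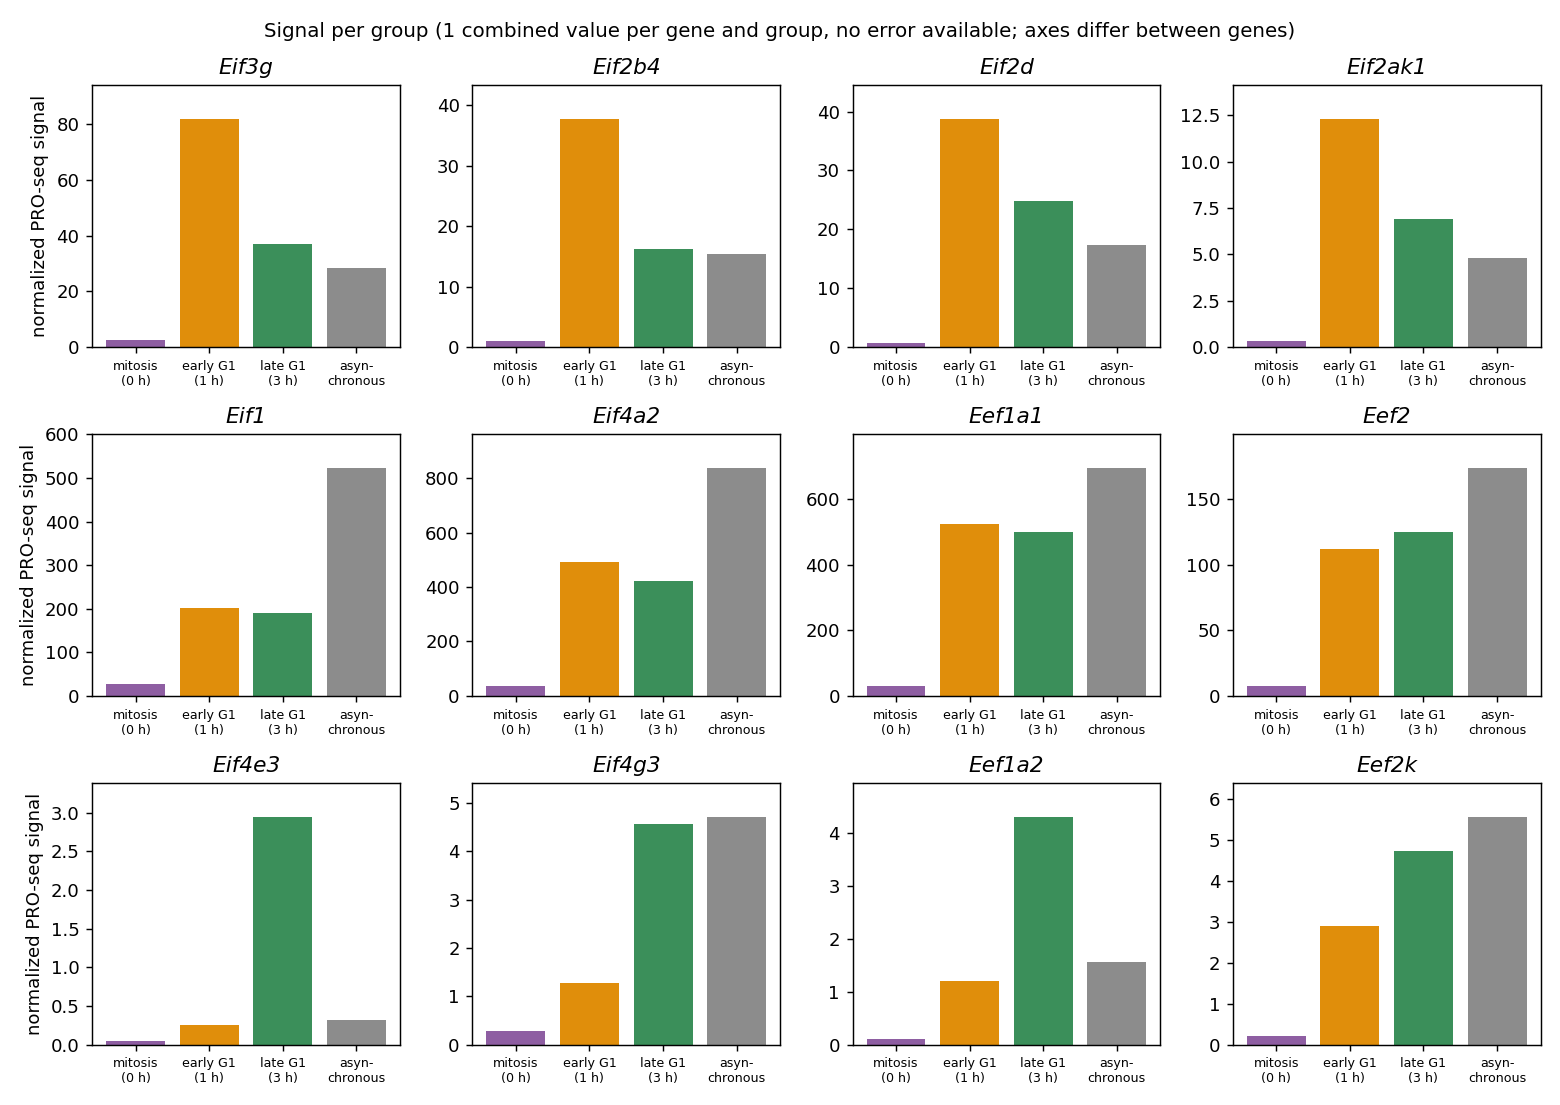
Normalized PRO-seq signal (linear axes that start at 0 and differ between genes) of 12 genes in mitosis, early G1, late G1 and asynchronous cells, with 1 combined value per group and no error bars. The top genes were highest in early G1, those of the middle line in asynchronous cells, and Eif4e3 and Eef1a2 in late G1.

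Ribosomal protein genes, chosen by symbol for comparison with the elongation factors after the values had been seen, were also below asynchronous cells in G1. Across 80 of them the median log2 ratio was -0.39 in early G1 and -0.53 in late G1, which is -0.69 and -0.74 relative to the median of all genes. The ranges of the other role groups relative to all genes ran from -0.10 for eIF4F to 0.64 for the kinases in early G1, and from -0.50 for eIF1 and eIF1A to 0.22 for eIF2 in late G1.

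The 6 genes that modify elongation factors had a median log2 ratio of 0.30 in early G1 (-0.02 with equal medians) and -0.19 in late G1. In the deposited values 0 of them were past 2-fold. Relative to all genes these medians were 0.0019 and -0.40, within the ranges of the other role groups. Eef2k, the kinase that inactivates eEF2, had 0.203 in mitosis, 2.89 in early G1 and 4.72 in late G1, against 5.56 in asynchronous cells. It was among the 4 lowest of the 65 genes in early G1 (log2 ratio -0.92) and among the 4 highest in late G1 relative to early G1 (0.69). Eef2kmt, which methylates eEF2, had 2.51 in mitosis, 82.7 in early G1 and 46.6 in late G1, against 51.4 in asynchronous cells. The eEF1A methyltransferase genes Eef1akmt1, Eef1akmt3 and Eef1akmt4 were 1.23 to 1.44-fold in early G1, and Eef1akmt2 was 0.758-fold.

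Genes of the same pathways outside the name rule were counted by lists of their roles. Of 10 termination, recycling and rescue genes, 3 were at least 2-fold higher than asynchronous cells in early G1 (17.7% of all genes were) and 0 in late G1 (16.9% of all genes). In late G1 the highest was Mcts1, with 6.42 in early G1 and 5.75 in late G1, against 3.45 in asynchronous cells, and the lowest was its partner Denr, with 35.8 in early G1 and 26.2 in late G1, against 49.6 in asynchronous cells. Products of these genes form a dimer that acts in reinitiation, and the pair lay on different sides of the asynchronous value.

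Of 6 genes for poly(A)-binding proteins and their partners, 1 was past 2-fold above asynchronous cells in early G1 (17.7% of all genes) and 0 in late G1 (16.9%). Among them Paip2b was highest in late G1 (13.02, against 8.40 in asynchronous cells) and Pabpc4 lowest (27.5, against 43.7). Of 9 initiation helpers and repressors, 2 were past 2-fold above them in early G1 (17.7% of all genes) and 0 in late G1 (16.9%), and 2 of 9 lay above 0 in late G1 (62.4% of all genes). The 4EHP partner Gigyf2 was highest (45.9 in late G1, against 29.8 in asynchronous cells) and the helicase Ddx3x lowest (32.8, against 45.9).

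Of 6 genes for eIF2 dephosphorylation and stress signalling, 0 were past 2-fold in early G1 and 1 was at least 2-fold lower in late G1 (5.14% of all genes). That gene was Ppp1r15a, which encodes GADD34, the inducible regulatory subunit of the eIF2 phosphatase, with 6.24 in mitosis, 60.3 in early G1 and 40.0 in late G1, against 99.9 in asynchronous cells. The highest of the 6 in late G1 was Dnajc3, an inhibitor of the eIF2 kinases, with 14.3, against 9.50 in asynchronous cells. Ppp1r15a thus lay below its asynchronous value at both G1 times, and did so under all 3 scalings.

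Of 17 genes of the mTORC1 axis, which controls the 4E-binding proteins, 3 were past 2-fold above asynchronous cells in early G1, close to the 17.7% of all genes, and 0 in late G1 (16.9% of all genes). The GTPase Rraga was highest in late G1, with 252 in early G1 and 230 in late G1, against 120 in asynchronous cells. The kinase Mtor was lowest, with 7.10 in early G1 and 3.97 in late G1, against 6.76 in asynchronous cells. Of 10 genes for hypusine and other modifications of the factors, 1 was at least 2-fold higher (17.7% of all genes) and 1 lower (9.53%) in early G1, and 1 was at least 2-fold lower in late G1 (5.14%). Both extremes in late G1 belong to diphthamide synthesis on eEF2: Dph6 had 4.36 in late G1, against 2.35 in asynchronous cells, and Dph2 had 10.5, against 21.1.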

How the data were processed

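The 8 PRO-seq libraries were grouped from the labels as mitotic, early G1, late G1 and asynchronous, with 2 libraries per group. The deposited table holds 1 combined normalized signal per gene and group, made by the authors; how libraries were combined, how values were scaled, whether length or strand was used, and the depth are not stated in the sources used here. The submitters' processing notes name Bowtie2, SAMtools, Picard and cutadapt, and the build GRCm38 (mm10), without versions or order. The deposited temporal class is a text label of another unit, made by the authors.

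The designed tests assumed a column per library and could not be fitted to 1 column per group, so ratios and counts are descriptions. Ratios were log2((signal + 0.1)/(signal + 0.1)), which understates the change of low genes, for genes with a mean signal of at least 0.5. A value of exactly 0 gave no ratio in that column. A 2-fold difference was counted as a difference. The computation was tested on simulated data. Medians of lists are also given minus the median of all genes tested. Python 3.11.15, NumPy 2.4.6, pandas 2.3.3 and Matplotlib 3.10.9 were used.

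The 65 genes, the role lists and the other lists were chosen with earlier results of these data known. The genes named are those of a fixed set of central factors, the 4 highest and 4 lowest in each comparison, paralog pairs, the extremes of each role list in late G1 against asynchronous cells, and 1 highest and 1 lowest gene of each list outside the name rule; ribosomal protein genes and overlapping neighbours were added after values were seen. Spans, overlaps and promoters are those of RefSeq for GRCm38.p6, matched by symbol, chromosome and strand. All 65 genes had a span, and 14 had no promoter sequence matched. Alternatives were other pseudocounts, filters, scalings, thresholds and lists.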

Additional observations from a re-analysis of the deposited data

How the results depend on the processing

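With 1 combined column per group, nothing here has a replicate check, depth cannot be weighed, and the scaling of the columns sets every level. No paired analysis was possible because the table holds 1 combined column per group; for the same reason leaving out each replicate was not run. A value without a test was called moved where it shifted by over 0.1 on the log2 scale, or a count where it differed by over 1.5 times.

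Scaling mattered most for mitosis. With columns at equal medians, 2 of 65 genes were at least 2-fold higher and 1 lower in mitosis than in asynchronous cells, and the median minus that of all genes was -0.00521; with quantile normalization these were 1, 1 and 0.00325, which turns the sign of the -0.12 given by the deposited values. In early G1 against mitosis equal medians gave 1 higher, 6 lower and 0.19, and quantile normalization 1, 4 and 0.074, because both set the columns to a like level. Median shares of asynchronous signal became 103% (mitosis), 110% (early G1) and 84.5% (late G1) at equal medians, and 102% and 109% in mitosis and early G1 with quantile normalization. Genes highest in early G1 numbered 27 with equal medians and 28 with quantile normalization, both added after seeing the data, as were the scalings of role groups and single pairs and the feeder sum without Fn1. In late against early G1, 3 genes with equal medians (5.14% of all genes) and 1 with quantile normalization (8.25%) were at least 2-fold lower. Quantile normalization gave a median minus that of all genes of -0.21, from a median of -0.28. In early G1 against asynchronous cells, 2 were higher (8.65% of all genes) and 4 lower (14.8%) with equal medians, and 3 higher (9.30%) with quantile normalization. In late G1 against asynchronous cells quantile normalization gave 1 higher (11.1% of all genes). The median minus that of all genes was then -0.12, from a median of -0.17.

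Other settings also moved values. For 36 named genes, the log2 ratio minus the median of all genes was followed in each comparison, 180 values in all. A minimum mean of 2.5 moved 102 of these values and a pseudocount of 0.5 moved 71, against 59 with equal medians and 129 with quantile normalization. That filter leaves a gene's own ratio unchanged. With it the median of all genes shifted by -0.10 (mitosis against asynchronous cells), 0.15 (early G1 against mitosis) and -0.10 (late against early G1). A pseudocount of 0.5 gave medians minus all genes of -0.37 in mitosis against asynchronous cells and 0.56 in early G1 against mitosis. It gave 3 genes lower in late against early G1 (6.60% of all genes). A minimum mean of 2.5 left 63 genes, with medians minus all genes of 0.19 in early G1 against mitosis and -0.29 in late against early G1. It left 1 gene higher in late against early G1 (10.3% of all genes) and 0 in late G1 against asynchronous cells (13.4%). At 1.5-fold, 26 genes were lower in late against early G1 (23.5% of all genes). In early G1 against asynchronous cells 24 were higher (36.4%) and 5 lower (17.2%), and 7 were higher in late G1 (30.5%). The 51 genes without regulators and enzymes, and the 49 without members that overlap a coding gene (added after seeing the data), each held 5 higher in early G1 against asynchronous cells (17.7% of all genes). The 49 held 1 higher in late G1 (16.9% of all genes). The cause of these shifts was otherwise not tested. For 36 named genes, 1430 values under alternatives held 1013 within 0.1 of the original, 417 shifted and 0 of opposite sign among differences past 2-fold from the median gene. The 1013 include all 180 values at the 1.5-fold threshold, which cannot change a ratio. They also include all 180 with genes at 0 kept and all 180 without the filter on low signal. Those settings leave a gene's own ratio unchanged and barely shift the median of all genes, so these values could hardly have moved.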

Other observations

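Small nucleolar RNA genes lay within the RefSeq span of 9 of the 65 genes. Their median log2 ratio to asynchronous cells was 0.19 in early G1 and -0.22 in late G1, against 0.50 and 0.01 for the other 56 genes. Early G1 was the highest group for 5 of the 9 and for 41 of the 56, against 44.2% of all genes. These counts, and those of the subsets below, use the deposited values. Over the 65 genes that count was 46, but 27 with equal medians and 28 with quantile normalization.

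A start site on the opposite strand lay within 500 bp for 11 of the genes. Early G1 was the highest group for 9 of these 11 and for 37 of the other 54, against 44.2% of all genes. RefSeq spans of 16 genes overlapped another coding gene. Those neighbours include Serp1, which overlaps Eif2a and had 1.16 in mitosis, 55.9 in early G1 and 24.9 in late G1, against 34.6 in asynchronous cells. Gps2, which overlaps Eif5a, had 8.77, 233 and 131 at these times, against 240 in asynchronous cells.

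Short genes, with spans of at most 10 kb, made up 20 of the 65, and 10 of these were highest in early G1, against 30 of the 36 genes of over 10 and up to 50 kb. Their median log2 ratio to asynchronous cells in early G1 was 0.33, against 0.53 for the 36. Over all genes of these 2 span ranges the medians were 0.10 and 0.33, a step in the same direction. Early G1 was the highest group for 44.2% of all genes of any span.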
